A study of Arabidopsis thaliana with 4 samples.

Results

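The subject is a small set of core histone genes of Arabidopsis thaliana: the histone H4 loci AT1G07820, AT3G53730 and AT5G59690 and the histone H2B locus AT5G22880, whose symbol is HTB2. They were chosen by locus, not by a threshold on the values, but with earlier results of these data known. All 4 were among the 9253 genes that could be named from the array annotation. Each is read by 1 probe. AT1G07820 lies on chromosome 1, AT3G53730 on chromosome 3, and AT5G59690 and HTB2 on chromosome 5.

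The values come from 4 two-colour Agilent Arabidopsis 2 oligonucleotide arrays, 1 per condition, so no condition was replicated. Each array set an RNA in the red dye (Cy5) against wild type in the green dye (Cy3). The red RNAs were fas1-2, mutated in the p150 subunit of chromatin assembly factor 1 (CAF-1), fas2-2, mutated in its p60 subunit, and wild type frozen 6 h or 12 h after gamma irradiation (dose 100 Gy, dose rate 300 Gy/h); the green RNA on the last pair of arrays was non-irradiated wild type. All plants were of the ecotype Nossen, 4 weeks old and grown on solidified MS medium. The tissue is named as rosette leaves in one place and as seedlings without roots in another, and none of the 6 leaf marker genes looked up had a named probe, so the tissue was not checked on markers. Each mutant is represented by 1 allele. Whether arrays shared a wild-type RNA, and how many plants were pooled, is not given in the sources used here.

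Histones package DNA into nucleosomes, in which H3 and H4 form a central tetramer flanked by dimers of H2A and H2B. Most new histone is made while DNA is copied, so transcripts of the core histone genes are known as markers of S phase. CAF-1 is the chaperone that delivers H3 and H4 to newly copied DNA, and H2A and H2B are added afterwards by other chaperones. Arabidopsis carries several H4 genes that encode one and the same protein, and a larger family of H2B genes whose products differ slightly. Because H4 genes resemble each other closely, a probe may read more than 1 of them; the specificity of these probes was not tested.

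Values are log2 ratios of red over green, so that a negative value means less transcript than in the control and -1 means 2-fold less. The scale and the direction were read as those of the scanner software (log10 of red over green, multiplied by 3.32). Neither is stated in the labels: were the ratio green over red, every lower value and rank given here would be a higher one and the reverse. Were the deposited values log2 already, the 2.92-fold of AT5G59690 at 6 h would be 1.38-fold. The median absolute deviation of all genes from their array's median was 0.116 to 0.152, depending on the array. Transcripts spotted more than once differed with a pooled SD of 0.24 to 0.28 between spots of one array (48 transcripts, 99 spots), which is the only technical yardstick in the data. The median SD over these transcripts was lower, 0.10 to 0.13. Whether the spots of a transcript carry one probe sequence was not checked. Distances below are set against the pooled figure unless stated. In a bulk extract, fewer cells that express a gene and less of its RNA per cell cannot be told apart.

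**Figure D1:**
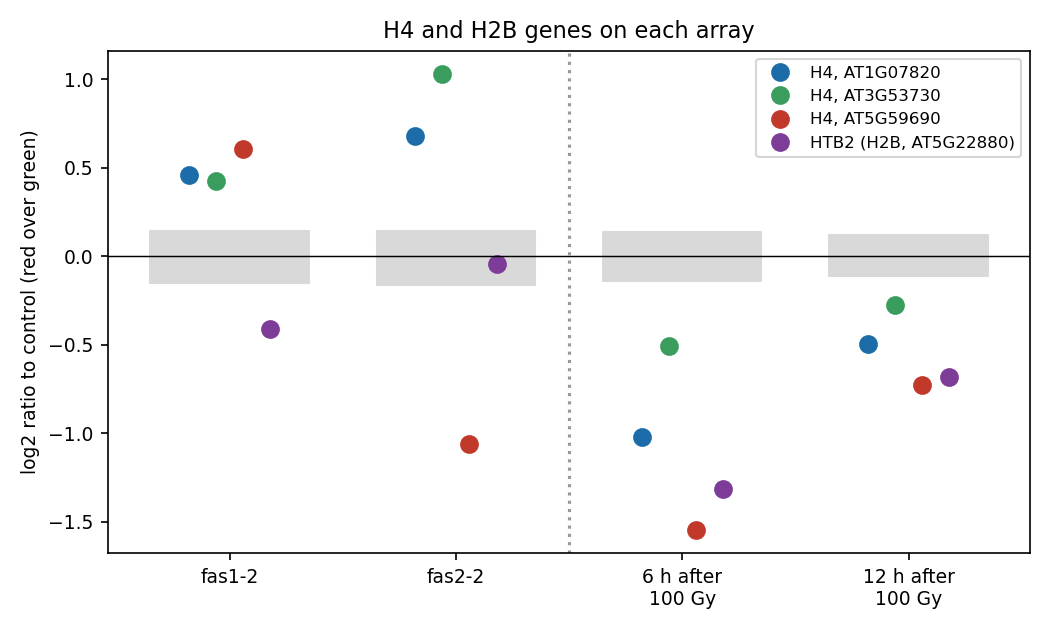
Log2 ratio to control (vertical axis) of the 3 H4 genes and HTB2 on each of the 4 arrays (horizontal axis); each point is 1 probe on 1 array, and grey bands span the median of all 9253 genes plus and minus their median absolute deviation. All 4 genes lie below the grey band at 6 h and 12 h, and the H4 genes lie above it in fas1-2.

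The first question was how these genes stood after irradiation. All 4 were below their control at both times, and 3 of the 4 were at least 2-fold lower at 6 h. AT5G59690 stood at -1.55 at 6 h, a 2.92-fold lower ratio, and at -0.72 at 12 h, 1.65-fold lower. HTB2, one of the H2B genes, stood at -1.32 (2.49-fold lower) and -0.68 (1.61-fold lower). These are among the lowest ratios of their arrays: counted from the lowest of 9253 genes, AT5G59690 was number 25 at 6 h and 175 at 12 h, and HTB2 was number 51 and 186.

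The H4 gene AT1G07820 stood at -1.02 at 6 h (2.03-fold lower, number 86 from the lowest) and at -0.49 at 12 h (1.41-fold lower, number 353). The H4 gene AT3G53730 was closest to its control, at -0.50 (1.42-fold lower, number 456) and -0.28 (1.21-fold lower, number 909). Over all genes, 1.01% were at least 2-fold lower at 6 h, against 3 of these 4, and 32% were below 0 at both times, against 4 of 4. Since the genes were picked with earlier results of these data known, the counts describe them and are no test.

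Tested as the mean of the pair of times against 0, with the spread between arrays of a setting as error, none of the 4 was called (limma, Benjamini-Hochberg adjustment over 9253 genes). The mean of HTB2 was -1.0 (SE 0.196, 95% interval -1.56 to -0.44, limma adjusted p = 0.249) and that of AT1G07820 was -0.76 (SE 0.158, interval -1.21 to -0.31, limma adjusted p = 0.249). AT5G59690 had the lowest mean, -1.14, but also the widest interval, -2.50 to 0.23 (SE 0.481, limma adjusted p = 0.381), because the error is pooled over both settings and its values in the mutants lay far apart. AT3G53730 had a mean of -0.39 (SE 0.177, interval -0.89 to 0.11, limma adjusted p = 0.403). In this comparison limma called 0% of all genes, with 1354 of 9253 at an unadjusted p under 0.05. Of all genes, 7.12% were lower at that unadjusted level; of the 4 histone genes, HTB2 and AT1G07820 were.

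The order of the genes was the same at both times: AT5G59690 lowest, then HTB2, AT1G07820 and AT3G53730. At 6 h the neighbours in that order were 0.23, 0.29 and 0.52 apart, and the SD expected for a difference between a pair of spots on that array was 0.353. Only the step from AT1G07820 to AT3G53730 exceeded it. At 12 h the steps were 0.04, 0.19 and 0.22, all below the 0.381 of that array. Neighbours in the 12 h order were thus not separated by more than the pooled spot-to-spot error. The distances from AT3G53730 to AT5G59690 (0.45) and to HTB2 (0.41) were above it.

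Every one of the 4 was closer to control at 12 h than at 6 h. The log2 ratio at 12 h was 0.468 of that at 6 h for AT5G59690, 0.484 for AT1G07820, 0.520 for HTB2 and 0.549 for AT3G53730. Among the 442 genes whose 6 h value lay in the same range (-1.55 to -0.50), this proportion had a median of 0.319 and quartiles of 0.049 and 0.653. The 4 histone genes thus lay between those quartiles, and 7.01% of the 442 genes fell within the narrow span they covered. The range and the span were both set by the 4 genes, which are among the 442, so this share is a description. Below 0 at both times and lower at 6 h were 19.4% of all genes, against 4 of 4 here. With 1 array per time and no statement on shared controls, the difference between times has no test; the steps from 6 h to 12 h were 0.82 (AT5G59690), 0.63 (HTB2), 0.53 (AT1G07820) and 0.23 (AT3G53730), and the SD expected for a difference of a pair of spots across these arrays was 0.367. The 12 h array was also the narrower: the median absolute deviation of all genes was 0.139 at 6 h and 0.116 at 12 h, and the part of that in the smaller values was not tested.

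**Figure D2:**
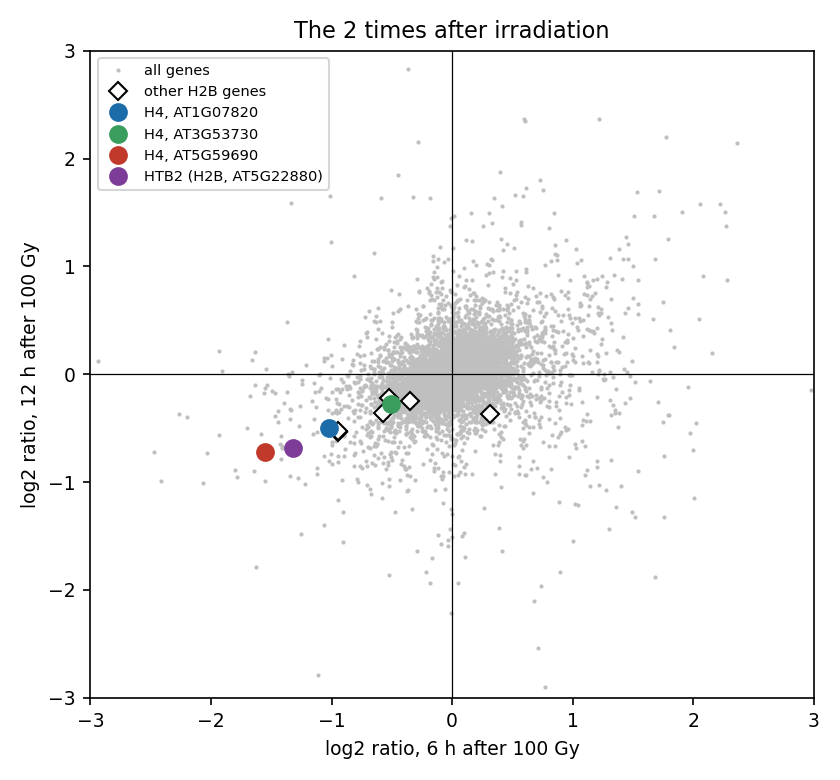
Log2 ratio at 6 h (horizontal axis) against 12 h (vertical axis) after irradiation for all 9253 genes (grey; 9 lie outside the axes), the 4 histone genes (coloured) and the 6 other H2B genes with a named probe (diamonds). The 4 coloured points run along a line from -0.50 and -0.28 to -1.55 and -0.72, and a single H2B gene lies to the right of 0 at 6 h.

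The second question was how the same genes stood when CAF-1 was mutated. The 3 H4 genes were above wild type in fas1-2 and lay close together there: AT5G59690 at 0.60 (1.52-fold higher), AT1G07820 at 0.46 (1.37-fold higher) and AT3G53730 at 0.43 (1.34-fold higher). Their range of 0.18 is smaller than the pooled SD of 0.236 between repeated spots on that array, but larger than the median SD of 0.118. All 3 were in the upper part of the array, at percentiles of 95.8, 93.5 and 92.7. HTB2 stood on the other side of 0 at -0.41 (1.33-fold lower), 0.84 below the nearest H4 gene.

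In fas2-2 the H4 genes spread apart. AT3G53730 stood at 1.03 (2.05-fold higher, number 151 from the highest) and AT1G07820 at 0.68 (1.60-fold higher, number 373), whereas AT5G59690 stood at -1.06 (2.08-fold lower, number 102 from the lowest). Of all genes, 1.77% were as far as 2-fold or more above wild type on this array, AT3G53730 among them, and 1.34% were 2-fold or more below it, AT5G59690 among them. HTB2 was at -0.04, near the middle of the array. The 2.09 between the highest and the lowest H4 gene is several times the 0.402 expected as the SD of a difference between a pair of spots there.

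The difference of fas2-2 minus fas1-2 was -1.66 for AT5G59690, number 27 from the lowest of 9253 genes, and a difference of that size in either direction was seen for 0.659% of them. For the others it was 0.61 (AT3G53730), 0.37 (HTB2) and 0.22 (AT1G07820), against a spot-to-spot SD of 0.369 for such differences; only AT3G53730 and AT5G59690 exceeded it. No test of these differences is possible with 1 array per mutant. The root marker genes with a named probe also stood higher in fas2-2, with 0.34 in fas1-2 against 1.0 in fas2-2 for PYK10, and -0.03 against 0.73 for EXPA7 (2 of the 4 listed root markers were measured). Whether root tissue has a part in these differences was not tested.

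As the mean of both mutants against 0, no histone gene of the 4 was called by limma, which called 0.119% of all genes (11 of 9253). AT3G53730 had a mean of 0.73 (SE 0.177, interval 0.23 to 1.23, limma adjusted p = 0.166) and AT1G07820 one of 0.57 (SE 0.158, interval 0.12 to 1.02, limma adjusted p = 0.192). These H4 genes were higher at an unadjusted p under 0.05, as were 9.59% of all genes. The mean of AT5G59690 was -0.23 (SE 0.481, limma adjusted p = 0.814), which hides values of opposite sign. HTB2 had the same mean of -0.23 (SE 0.196, limma adjusted p = 0.541), from -0.41 in fas1-2 and a value near 0 in fas2-2 (-0.04).

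The third question was whether the mutants and irradiated wild type differed. For AT1G07820, AT3G53730 and HTB2 both irradiated values lay below both mutant values, and for AT5G59690 the settings overlapped, since fas2-2 at -1.06 was below the 12 h value of -0.72. Such a separation in this direction held for 23.4% of all genes, against 3 of these 4. AT1G07820 and AT3G53730 were above 0 in both mutants and below 0 at both times, a pattern seen in 7.55% of all genes. The control carried the green dye on every array. A dye effect of one size on all arrays would cancel in irradiated minus mutants, but not in the ratios against 0. The part of dye in these values was not tested.

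The largest difference of irradiated minus mutants was that of AT1G07820, at -1.33 (SE 0.224, interval -1.96 to -0.69, limma adjusted p = 0.217) between the mean of 0.57 in the mutants and the mean of -0.76 after irradiation. AT3G53730 followed at -1.12 (SE 0.250, interval -1.83 to -0.41, limma adjusted p = 0.251). AT5G59690 differed by -0.91 (SE 0.680, interval -2.84 to 1.02, limma adjusted p = 0.584), a value that came to -0.076 without the fas1-2 array and to -1.74 without the fas2-2 array. HTB2 differed by -0.77 (SE 0.278, interval -1.56 to 0.02, limma adjusted p = 0.356). None was called, and limma called 0% of all genes here, with 1326 of 9253 at an unadjusted p under 0.05. At that unadjusted level 6.42% of all genes were lower after irradiation than in the mutants, AT1G07820 and AT3G53730 among them. The H4 genes and HTB2 therefore share the low side after irradiation but not one pattern in the mutants.

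**Figure D3:**
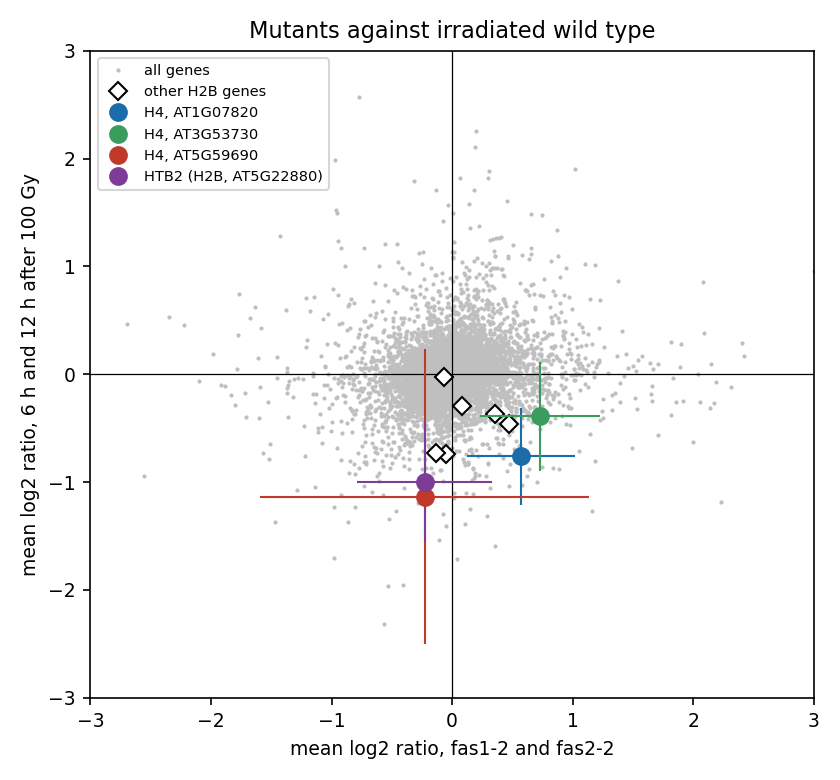
Mean log2 ratio of fas1-2 and fas2-2 (horizontal axis) against the mean of 6 h and 12 h after irradiation (vertical axis) for all 9253 genes (grey; 4 lie outside the axes), the 4 histone genes (coloured, with 95% intervals from limma) and the other H2B genes (diamonds). All 4 coloured points lie below 0 on the vertical axis, AT1G07820 and AT3G53730 to the right of 0 and AT5G59690 and HTB2 to the left of it.

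The rest of the family was read from lists of H4 and H2B loci. Of 8 H4 loci the 3 described here had a named probe, and of 11 H2B loci 7 had one, HTB2 included. After irradiation the other 6 H2B genes ranged from -0.94 to 0.32 at 6 h, with a median of -0.55, and from -0.54 to -0.22 at 12 h, with a median of -0.36; the medians of all genes were 0.00 on both arrays. HTB2 was the lowest H2B gene at each time. AT2G37470 at -0.94 and -0.54 and AT3G09480 at -0.94 and -0.52 came next at each time. HTB4 (AT5G59910) stood at -0.57 and -0.36, HTB1 (AT1G07790) at -0.52 and -0.22, and HTB11 (AT3G46030) at -0.35 and -0.25. AT2G28720 was the exception at 6 h, at 0.32, and stood at -0.37 at 12 h.

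In all, 9 of the 10 measured H4 and H2B genes were below 0 at both times and all 9 were lower at 6 h than at 12 h. None of the 10 was called by limma in any of the 3 comparisons. At an unadjusted p under 0.05 limma put 7 of the 10 below 0 after irradiation, 6 of them H2B genes; the share of all genes was 7.12%. The list was drawn up with these results known, so this is a description of the family.

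**Figure D4:**
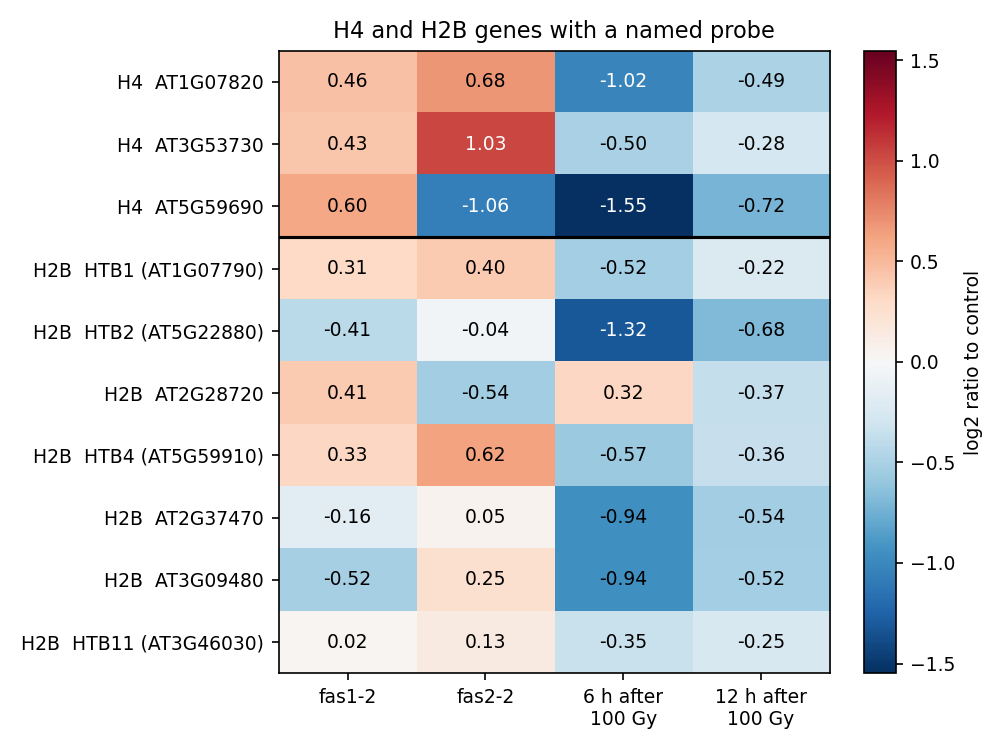
Log2 ratio to control of the 10 H4 and H2B genes with a named probe (rows) on the 4 arrays (columns); blue is below and red above control, and each cell carries its value. The columns for 6 h and 12 h are blue in every row but AT2G28720 at 6 h, whereas the mutant columns hold both colours.

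In the mutants the H2B genes lay on both sides of wild type. HTB1 had values of 0.31 (fas1-2) and 0.40 (fas2-2), and HTB4 of 0.33 and 0.62, so that these genes, like AT1G07820 and AT3G53730, were above 0 in both mutants. HTB2 was below 0 in both, at -0.41 in fas1-2 but near 0 in fas2-2 (-0.04). AT3G09480 stood at -0.52 and 0.25 and AT2G28720 at 0.41 and -0.54, while AT2G37470 (-0.16 and 0.05) and HTB11 (0.02 and 0.13) were near 0. Among the 7 H2B genes the medians were 0.02 and 0.13.

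Above 0 in both mutants and below 0 at both times were 5 of the 10 H4 and H2B genes: AT1G07820, AT3G53730, HTB1, HTB4 and HTB11, against 7.55% of all genes. The mutant values of HTB11 lay within the pooled spot-to-spot SD, as did the 12 h values of HTB1 (-0.22) and HTB11 (-0.25). That of AT3G53730 at 12 h (-0.28) was just beyond the 0.27 of that array. Of the 3 linker histone H1 genes, all measured, AT1G06760 (0.36 and 0.30 in the mutants, -0.35 and -0.31 after irradiation) and AT2G30620 (0.30 and 0.44, -0.31 and -0.44) had it as well, and HIS1-3 (0.02 and 0.33, -0.23 and 0.24) did not. Of the H3 genes, which form the tetramer with H4, 6 of 14 loci were measured, and 1 of them had this pattern. AT5G65360 and AT5G10400, which encode the replication-linked H3.1, were at -0.68 and -0.95 at 6 h and -0.36 each at 12 h, but on both sides of wild type in the mutants (-0.37 and 0.68, 0.02 and -0.42). HTR12, the centromeric H3, stood at 0.20 and 0.48 in the mutants and at -0.92 and -0.05 after irradiation. AT4G40040 (0.24 and 0.12) and AT5G10980 (0.24 and 0.13), which encode the replacement histone H3.3, were above 0 after irradiation. These values lay within the pooled spot-to-spot SD of 0.25 at 6 h and 0.27 at 12 h. In the mutants the former stood at 0.01 and 0.09 and the latter at -0.04 and 0.28. AT1G13370 lay between -0.08 and -0.02 on all arrays. None of the 13 listed H2A loci, whose products pair with H2B, had a named probe.

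AT1G07820 lies 3 protein-coding genes from HTB1 in the order of the reference gene list, which shared its signs on all 4 arrays. AT1G07830, next to it on the other side, stood at -0.17, -0.25, 0.08 and 0.23 (fas1-2, fas2-2, 6 h and 12 h). AT5G59700, next to AT5G59690, stood at -0.17, 0.16, -0.03 and -0.06. Within 10 genes of AT5G59690 no other histone gene was listed. AT3G53730 has the H2B gene AT3G53650 at 7 genes' distance, which had no named probe.

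Likeness to each member in profile was measured as the Euclidean distance between the 4 log2 ratios, over the 4 arrays, with no test. Closest to AT3G53730 were AT3G05730 at a distance of 0.13, AT4G28430 at 0.20 and AT4G16146 at 0.27. Closest to AT1G07820 were AT3G42725 at 0.26, AT4G21930 at 0.27 and ATMPK13 (AT1G07880) at 0.38, the last lying 6 genes away from it on the chromosome. Closest to HTB2 were AT2G39690 at 0.32, AT3G51280 at 0.38 and the Aurora kinase gene AUR2, active in mitosis, at 0.39. AT5G59690 had no near neighbour: the closest, AT1G49570, was 0.75 away, followed by KIN2 at 0.79 and EXPA8 at 0.91. Between members the distance was smallest for AT1G07820 and AT3G53730, at 0.66, and largest for AT3G53730 and AT5G59690, at 2.39. AT3G53730 was number 37 among the genes nearest to AT1G07820, and AT1G07820 was number 114 among those nearest to AT3G53730.

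Genes of DNA replication and of mitosis mark the dividing cells in which core histone genes are most active, and 5 of the 41 listed had a named probe (2 of 24 for S phase, 3 of 17 for G2 and M phase). At 6 h all 5 were below 0, as were 4601 of all 9253 genes. AUR2 stood at -1.42, the DNA polymerase alpha gene ICU2 at -0.51 and the MCM7 helicase gene PRL at -0.49. AUR1 stood at -0.28, just beyond the pooled spot-to-spot SD of 0.25 on that array, and AUR3 at -0.20, within it. At 12 h AUR2 stood at -0.57, AUR1 at -0.12, AUR3 at -0.07, PRL at -0.02 and ICU2 at 0.17. In the mutants PRL stood at 0.43 and 0.58, ICU2 at 0.25 and 0.29, AUR3 at 0.27 and 1.09, AUR1 at 0.04 and 0.10, and AUR2 at -0.06 and -0.09. At 12 h the values of AT5G59690, HTB2 and AT1G07820 (-0.72, -0.68 and -0.49) were thus close to that of AUR2, the lowest of the 5. The value of AT3G53730 (-0.28) was nearer to control. AUR1, AUR3 and PRL were nearer still, and ICU2 was above 0, all within the pooled spot-to-spot SD of 0.27 on that array. Whether the share of dividing cells has a part in the histone values was not tested. ASF1A (AT1G66740), a chaperone of H3 and H4 and 1 of 10 listed chaperone genes with a probe, stood between -0.12 and 0.12 on all arrays. Of 4 listed genes of the tapetum, the nurse tissue of pollen, 2 were measured: AMS stood at -1.54, 0.00, 1.73 and 3.42 (fas1-2, fas2-2, 6 h and 12 h), its fas2-2 value being listed as exactly 0, and AT5G07230 lay between -0.02 and 0.09. CLV3, the single measured gene of 4 meristem markers, lay between -0.05 and 0.03 on all arrays. Whether a different mix of organs has a part in the histone values was not tested.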

How the data were processed

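RNA of 4 two-colour Agilent arrays was analysed, 1 array per condition, with the red and green channels as given in the labels. The authors deposited 1 value per feature and array, taken here as the log10 ratio of red over green. Agilent Feature Extraction is listed as the software, per the submitters' processing notes; a version, background correction or dye normalization is not given in the sources used here. The deposited log10 values ran from -1.80 to 1.66, with array medians between -0.00144 and -0.000444. Spot intensities were not analysed here, so signal over background and saturation were not judged, and the number of arrays limits the precision.

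A factor of 3.32 turned them into log2 ratios. Of 22575 features, 9335 carried exactly 1 gene name (platform annotation of 2007), 40 carried more than 1 and 13200 carried no name. Only the first were used by name, 9317 of them through the reference gene list (assembly TAIR10.1), and probes of a gene were averaged to 9253 genes. Start positions in the reference gene list served only to order its protein-coding genes for the count of neighbours, and no coordinates are given. Pearson correlations between arrays over all features were 0.599 to 0.764.

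limma 3.58.1 (R 4.3.3; lmFit and eBayes) fitted a mean of the mutants, a mean of the irradiated arrays and their difference on all 4 arrays, with Benjamini-Hochberg adjustment over 9253 genes and calls at an adjusted p under 0.05. Its error comes from how far fas1-2 and fas2-2, and 6 h and 12 h, lie apart, with 3.78 total degrees of freedom. This error thus includes any real difference between the mutants and between the times, together with technical error, and these cannot be told apart. It is not the variation between replicates of a condition. It does not hold the variation of control plants, and separate cultures are not stated. Each array alone was described by value and rank. The fit was tested on simulated data with independent errors on every array. That checked its estimates of planted changes, and does not show that its error suits these arrays. The members and gene lists were chosen with earlier results of these data known. Genes named by rule are the 4 members, up to 3 lowest and 3 highest of each listed histone, replication, mitosis or chaperone group per setting, and the 3 genes of nearest profile per member; cell type markers and the genes next to members were added after their values were seen. Alternatives were another centring, scaling, variance moderation, probe rule and feature set, exact zeros as missing, another log base, and each array left out.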

Additional observations from a re-analysis of the deposited data

Results flagged for a closer look

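AT5G59690 stood at 0.60 in fas1-2 and at -1.06 in fas2-2, on opposite sides of wild type in mutants of the same complex; the difference was not tested. AT1G07820 was above 0 in both mutants and below 0 at both times after irradiation, with a difference of -1.33 (limma adjusted p = 0.217), and AT3G53730 likewise, with a difference of -1.12 (limma adjusted p = 0.251). Neither difference passed the threshold.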

How the results depend on the processing

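Under 11 alternatives in each of 3 comparisons, 131 of 132 values of the 4 genes kept their sign, and none was called (smallest limma adjusted p 0.161). The exception was AT5G59690 in the mutants, which stood at 0.60 without the fas2-2 array and at -1.06 without the fas1-2 array. Its difference of irradiated minus mutants ranged from -1.74 to -0.076 with 1 array left out. Many of the 132 signs could not change, so their count is no measure of stability. Variance moderation, probe rule, feature set and exact zeros left each gene's value as it was. Another log base only divided it by a constant. Leaving out an array also left the mean of the other setting as it was. The 11 genes called in the mutants came to 0 after scaling to one spread, to 0 with robust moderation and to 0 without any one array. With all features as rows, limma called 756 features in the mutants and 624 after irradiation; 446 and 453 of these belong to 476 features that were at least 2-fold lower on all 4 arrays, of which 1 has a single gene name. Genes at least 2-fold from control at 12 h numbered 153, and 234 after scaling. Members at least 2-fold lower at 6 h numbered 3, and 0 if the deposited values are log2. Ranking over all features moved no percentile of a member by more than 2.82 points, which is much for the lowest ones. At 6 h AT5G59690 went from percentile 0.26 to 2.41 and HTB2 from 0.54 to 2.64. AT1G07820 went from 0.92 to 3.13 and AT3G53730 from 4.92 to 7.06 there. No paired analysis was possible because every condition has 1 array and no replicate numbers.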
